A study of Mus musculus with 2 samples.

Results

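The genes described here encode the cytoplasmic actins and the small proteins that bind actin monomers: beta-actin (Actb), gamma-actin (Actg1), the cofilins (Cfl1, Cfl2), the profilins (Pfn1, Pfn2) and the beta-thymosins (Tmsb4x, Tmsb10). The 8 genes were chosen by name, with earlier results of these data known, where 24675 genes of the expression table had a symbol. The platform annotation placed 7 of the 8 among the measured features, and Actg1 was not analysed here. RNA of mouse embryos was profiled on Affymetrix Mouse Gene 2.0 ST arrays at embryonic day 10.5, in tissue cut by laser on either side of the dorsal aorta, in the region where the first blood stem cells of the embryo form. Ventral tissue lay under the vessel and dorsal tissue between its roof and the notochord. Both came from the same C57Bl/6 embryos, for which the labels state no mutation, treatment or number. Each tissue was represented by 1 array, both given as biological replicate 4, so no value below has a replicate error and no test could be run.

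Actin is among the most abundant proteins of most cells. It exists as free monomers and as filaments, and cells crawl, divide and hold their shape by moving subunits between these pools. Beta-thymosins hold monomers in reserve, profilins load them with ATP and deliver them to growing filament ends, and cofilins cut old filaments and return their subunits to the pool. Of the cofilins, Cfl1 is the widely expressed form and Cfl2 the form best known from muscle; of the profilins, Pfn1 is widely expressed and Pfn2 is best known from the nervous system. In an embryo the same machinery drives the migration of mesenchyme and the shape changes of epithelium and endothelium, and Actb is also a customary reference gene for expression measurements.

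The main differences were in Cfl2 and Pfn2, which were higher in ventral tissue, and in Actb, which was higher in dorsal tissue. Both Cfl2 and Pfn2 had a dorsal level within background, and the ventral level of Pfn2 was little above it. The paralogs cannot be ranked fully, because Cfl1 was at background in both tissues, while Pfn1 was above background in both and within 2-fold. The regions just upstream of these 4 genes are shown first, so that the paralogs can be set side by side. They are the 250 bases before an annotated start of the gene, 5′ to 3′ on the strand of the gene, from RefSeq on build GRCm38.p6, and RefSeq windows matched 7 of the 8 genes. The exception was Actb. Capitals mark every match, on either strand, to any of 4 motifs. The GC box was searched as GGGCGG. The CCAAT box was searched by the letters of its name. The TATA box was searched as TATAAA. The CArG box, which serum response factor binds, was the last of the 4. Adjacent matches run together, and overlapping matches were each counted.
Cfl2 upstream sequence, chr12:54862878-54863127, minus strand: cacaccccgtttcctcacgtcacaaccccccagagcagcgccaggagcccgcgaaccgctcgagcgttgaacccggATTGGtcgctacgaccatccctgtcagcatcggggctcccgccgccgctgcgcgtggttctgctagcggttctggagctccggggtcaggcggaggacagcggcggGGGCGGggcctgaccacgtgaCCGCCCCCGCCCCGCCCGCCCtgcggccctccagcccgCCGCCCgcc
Cfl1 upstream sequence, chr19:5490205-5490454, plus strand: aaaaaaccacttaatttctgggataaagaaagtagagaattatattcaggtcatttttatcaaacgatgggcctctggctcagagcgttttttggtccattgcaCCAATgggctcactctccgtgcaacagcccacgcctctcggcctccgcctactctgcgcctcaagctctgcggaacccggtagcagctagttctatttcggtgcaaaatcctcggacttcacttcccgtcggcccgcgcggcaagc
Pfn2 upstream sequence, chr3:57847758-57848007, minus strand: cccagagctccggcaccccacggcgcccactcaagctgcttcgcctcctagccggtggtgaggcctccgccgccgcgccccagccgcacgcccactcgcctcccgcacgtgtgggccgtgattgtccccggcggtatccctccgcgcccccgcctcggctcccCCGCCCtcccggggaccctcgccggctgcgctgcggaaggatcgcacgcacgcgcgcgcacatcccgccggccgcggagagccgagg
Pfn1 upstream sequence, chr11:70654651-70654900, minus strand: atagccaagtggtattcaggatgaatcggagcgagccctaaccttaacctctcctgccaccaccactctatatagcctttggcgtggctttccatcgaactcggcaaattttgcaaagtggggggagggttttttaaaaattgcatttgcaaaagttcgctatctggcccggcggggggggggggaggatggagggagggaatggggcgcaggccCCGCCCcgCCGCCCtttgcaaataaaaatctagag

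The upstream sequence of Cfl2 held 6 GC boxes and 1 CCAAT box, and 74.4% of its bases were G or C. That of Cfl1 held no GC box and 1 CCAAT box, at 52.0% G or C. The Pfn2 sequence held 1 GC box at 78.0% G or C, and the Pfn1 sequence held 2 GC boxes at 54.4%. Cfl2 and Pfn2 thus had the richer G and C content of each pair, where the median of 32851 windows of the same length was 52.4%. A GC box was present in 32.7% of those windows and a CCAAT box in 33.8%, so neither motif is rare. The TATA box, present in 12.4% of windows, was matched in none of the 7 genes. The CArG box was matched in 1.47% of windows and, among the 7 genes, in Actg1 alone, 90 bases upstream of its start. These matches describe letters in a window and say nothing of which factors bind there.

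Levels are log2 values on the RMA scale, and a difference is ventral minus dorsal, so that a positive difference means higher in ventral tissue. A level under 3.92, the 95th percentile of 1365 olfactory and vomeronasal receptor genes thought silent here, is called background, and 5.48 is the 99th percentile of those receptors. The values of the whole table ran from 1.47 to 14.2 in the ventral and from 1.45 to 14.1 in the dorsal array, with 5884 and 5975 genes above background. A gene was kept for counting if its higher value reached 3.10, which left 13982 genes, and all 7 measured genes of the group were kept. Pfn2 passed through its ventral value alone. By size only, a gene whose level was higher in ventral tissue by 2-fold or more is called ventral-high, and a gene higher in dorsal tissue by as much is called dorsal-high. By that rule 9.44% of kept genes were ventral-high and 4.88% dorsal-high, beside 2 and 1 of the 7 actin and monomer-binding genes. Because the genes were chosen with these values known, the counts are a description and nothing is read from them. The marker lists were chosen with earlier results of these data known, so their counts are a description and no check of the dissection. Of sclerotome genes, 5 of 5 had the higher level in dorsal tissue, 3 of them by at least 2-fold, while the difference of Sox9 was only -0.14. Of coelomic epithelium genes, 5 of 5 had the higher level in ventral tissue, again 3 by at least 2-fold. With levels under the mark raised to it, 2 of 5 remained 2-fold apart in each list, Uncx and Emx2 no longer counting. The sclerotome marker Pax1 and the coelomic marker Upk3b were at background on both arrays.

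**Figure D1:**
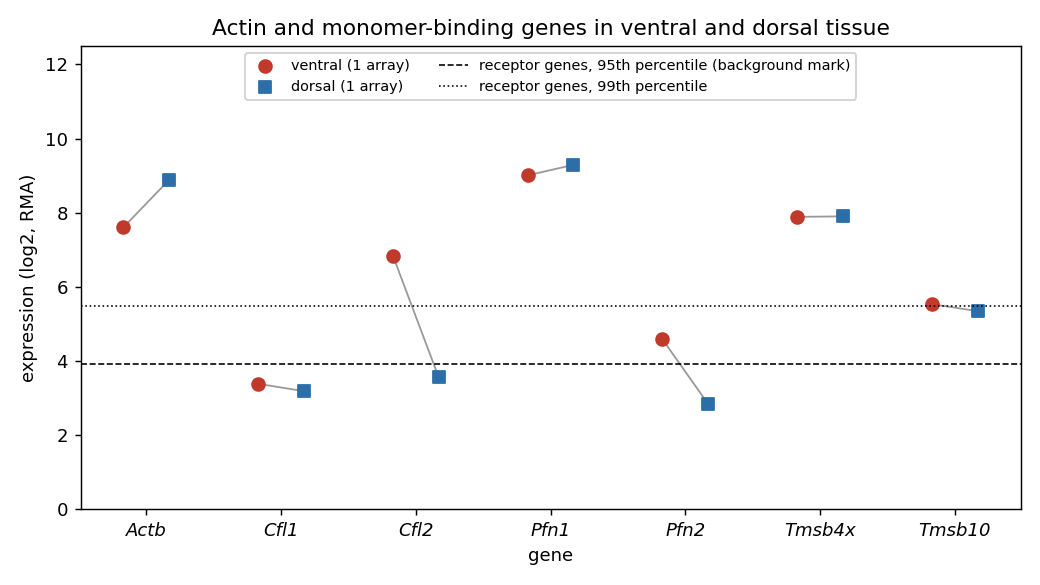
Expression (log2, RMA) of the 7 measured genes, with the ventral array as circles on the left and the dorsal array as squares on the right of each pair, 1 array per tissue. Cfl2 and Pfn2 lie below the dashed background mark at 3.92 in dorsal tissue, Cfl1 lies below it in both, and Actb stands at 7.60 in ventral and 8.89 in dorsal tissue.

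Actb, which encodes beta-actin, the subunit of filaments at the leading edge of moving cells, had levels of 7.60 in ventral and 8.89 in dorsal tissue. The difference of -1.28 corresponds to a level 2.44-fold lower in ventral tissue. Both values lay above the higher receptor percentile of 5.48, so the fold does not rest on a background level. Of all kept genes, 383, or 2.74%, had a difference at least as far in the dorsal direction. Among the 396 kept genes with a mean level of at least 8, 7.32% were dorsal-high, a share larger than in the table as a whole. The Actb probes may also read its near-identical relatives, among them Actg1 and pseudogenes, so this value is uncertain for Actb alone. In such bulk tissue, fewer cells of a type and less RNA per cell cannot be told apart.

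Actb was set beside other genes customarily used as a constant reference, since a change in such a gene shifts every value normalized to it. Of 16 listed, 12 were measured and 11 kept. The 11 had a median difference of 0.12, with 2 ventral-high and 0 dorsal-high. B2m, the light chain of MHC class I, was furthest from zero at 7.18 in ventral and 5.38 in dorsal tissue, or 3.50-fold in the direction opposite to Actb. Gusb, a lysosomal enzyme, was the other gene counted, but its levels of 3.54 in ventral and 2.43 in dorsal tissue were both at background. Against each of the 9 genes above the mark on both arrays, Actb was lower in ventral tissue, with the difference of Actb minus that of the reference gene running from -3.09 for B2m to -0.85 for Hprt, a purine salvage enzyme. Eef1a1, a translation elongation factor, was at background in ventral tissue, at 3.28 in ventral and 3.94 in dorsal tissue. Gapdh, the glycolytic enzyme most often paired with Actb, was at background on both arrays, at 2.05 in ventral and 2.12 in dorsal tissue.

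Cfl2, the cofilin best known from muscle, had levels of 6.84 in ventral and 3.56 in dorsal tissue. The ventral level was above the 99th percentile of the receptor genes and the dorsal level was at background. The measured difference was 3.28, and counting the dorsal level as no lower than the background mark, the ventral level of Cfl2 was at least 7.59-fold that in dorsal tissue. Of all kept genes, 93, or 0.665%, had a measured difference at least as far in the ventral direction. Its paralog Cfl1, which encodes the cofilin of most cell types, was at 3.38 in ventral and 3.19 in dorsal tissue, both under the background mark, so no fold is given. Cfl1 and Gapdh, both known as active in nearly all cells, were thus both read at background here.

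Pfn2, the profilin best known from neurons, had levels of 4.58 in ventral and 2.84 in dorsal tissue. The ventral level lay between the 95th and 99th percentiles of the receptor genes and the dorsal level was at background. The measured difference of 1.75 becomes a bound of at least 1.59-fold, short of 2-fold, once the dorsal level is counted at the background mark. With values under the mark raised to it, an alternative added after seeing the data, 14.1% of the 7101 genes that exceeded the mark anywhere were ventral-high and 5.90% dorsal-high. Under that rule Cfl2 and Actb remained, 1 gene in each direction. Pfn1, the profilin of most cell types, was at 9.01 in ventral and 9.29 in dorsal tissue, which is -0.28 and within 2-fold.

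The beta-thymosins were within 2-fold, at levels above background on both arrays. Tmsb4x, the main monomer-sequestering peptide of many cell types, had levels of 7.89 in ventral and 7.90 in dorsal tissue, for a gap of -0.01. Tmsb10, a close relative, was at 5.53 in ventral and 5.34 in dorsal tissue, for a gap of 0.19. Neither gene was 2-fold apart, and the sign of each changed with scaling: Tmsb4x was at 0.11 with the differences centred on the kept genes, and Tmsb10 at -0.09 after quantile normalization. With 1 array per tissue, a difference of this size cannot be told from no difference.

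**Figure D2:**
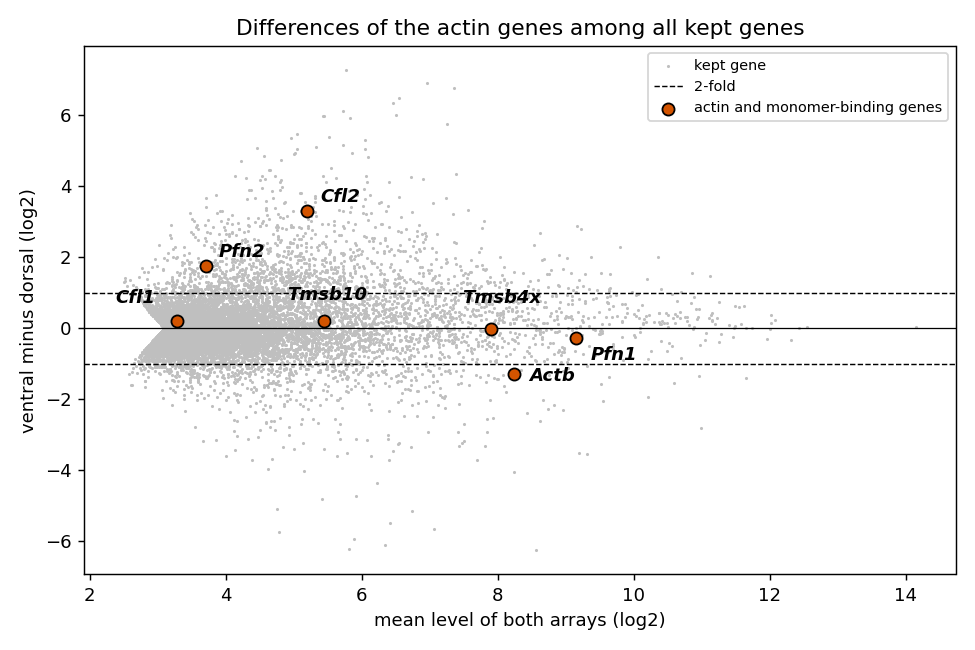
Difference, ventral minus dorsal (log2), against the mean level of both arrays for the 13982 kept genes (grey), with the 7 actin and monomer-binding genes in orange and dashed lines at 2-fold. Cfl2 at 3.28 and Pfn2 at 1.75 lie above the upper line, Actb at -1.28 lies below the lower line, and the other 4 lie between.

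Over all 7 measured genes the median difference was 0.19, beside -0.12 over all kept genes, and single differences ran from -1.28 to 3.28. The median was -0.09 after quantile normalization. Under 4 other scalings of the 2 arrays, Actb stayed between -1.54 and -1.17, Cfl2 between 3.15 and 3.40 and Pfn2 between 1.62 and 1.87. The measured differences of the 3 genes therefore kept their direction and their side of 2-fold under every scaling tried. Those of Cfl2 and Pfn2 rest on a dorsal level at background, and of their bounds only that of Pfn2 was short of 2-fold. Pfn1 ranged from -0.55 to -0.17.

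**Figure D3:**
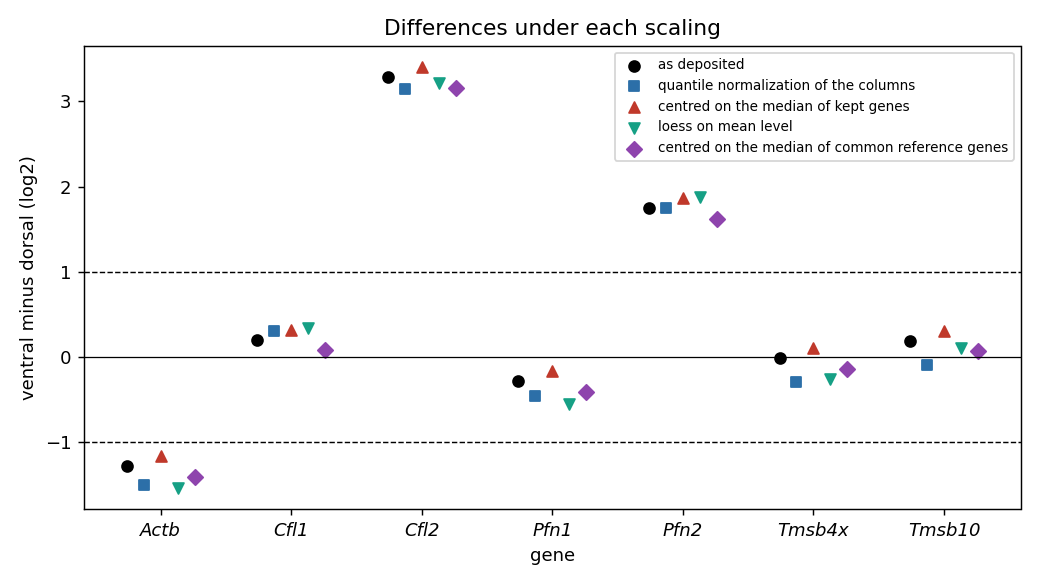
Difference, ventral minus dorsal (log2), of each gene as deposited and under 4 other scalings of the arrays, with dashed lines at 2-fold. Cfl2, Pfn2 and Actb lie outside the lines under each of them, and the signs of Tmsb4x and Tmsb10 vary.

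The closest matches in pattern were sought among 1261 protein-coding genes above the 99th percentile of the receptors on both arrays. With 2 arrays a pattern is a single difference, so likeness is the gap between measured differences and many genes are near any value. For Cfl2, Pfn2 and Cfl1 that difference includes a level at background. Genes at background in dorsal tissue, like Cfl2 and Pfn2 themselves, were not searched, which limited the matches these 2 could have. Within 0.1 of Cfl2 there were 2 genes, Zfp955b and Ggnbp2, at differences of 3.33 and 3.20. Within 0.1 of Pfn2 there were 13, the nearest being Psmc6 and Rbm5, and within 0.1 of Actb there were 29, led by Mfsd5 and Trap1. For the 4 genes within 2-fold, between 116 and 142 genes were as near. The nearest were Tomm70a and Psmd14 for Cfl1, Ywhaz and Incenp for Pfn1, Hbb-y and Ubap2l for Tmsb4x, and Pitpnb and Srsf5 for Tmsb10.

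The wider actin pathway was followed in 10 lists of 118 genes, of which 105 were measured and 93 kept. Of the 93, 16 were ventral-high and 5 dorsal-high, which is 17.2% and 5.38%, where all kept genes had 9.44% and 4.88%. Of the 64 pathway genes that exceeded the background mark in either tissue, with lower values raised to the mark, 21.9% were ventral-high and 6.25% dorsal-high, where all such genes had 14.1% and 5.90%. The median difference was 0.13, beside -0.12 for all kept genes. Because the lists were chosen with earlier results of these data known, these shares are a description and nothing is read from them. The same holds for the counts of single lists below, beside which the shares of all kept genes, 9.44% and 4.88%, also stand. On both arrays 41 of the 105 measured genes were at background. Under all 4 other scalings, 11 of the 16 and 4 of the 5 were still at least 2-fold apart.

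Among the other actins, the smooth muscle forms differed in the direction opposite to Actb. Actg2, the smooth muscle actin of gut and bladder, was higher by 3.75-fold, at 6.06 in ventral against 4.15 in dorsal tissue. Acta2, the actin of vascular smooth muscle, was 2.23-fold higher there, at 6.31 in ventral against 5.15 in dorsal tissue, but its difference was 0.87, within 2-fold, after quantile normalization. Actc1, cardiac actin, was within 2-fold at 6.19 in ventral and 5.79 in dorsal tissue, and Acta1, skeletal muscle actin, was at background in both, at 3.47 in ventral and 3.83 in dorsal tissue. Actin genes share much of their coding sequence, so their probes may share signal.

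Genes of proteins that work beside cofilin and profilin were mostly within 2-fold, but many of them were at background on both arrays. Twf1, which encodes the monomer-binding and capping protein twinfilin, was higher by 3.56-fold, at 6.06 in ventral against 4.23 in dorsal tissue, and Wdr1, the cofilin cofactor AIP1, was 2.10-fold higher at 6.20 in ventral against 5.13 in dorsal tissue, a difference that was under 2-fold in 3 of 4 other scalings. The other 8 of the 10 kept genes in that list were within 2-fold. Dstn, destrin, the third member of the cofilin family, had levels of 7.29 in ventral and 7.46 in dorsal tissue, and Cap1, which recycles monomers released by cofilin, had 6.96 in ventral and 6.79 in dorsal tissue. Cap2, a relative of Cap1, lay under the background mark in both tissues, at 2.96 in ventral and 3.55 in dorsal tissue, as did Pfn3, a further profilin gene, at 2.98 in ventral and 3.51 in dorsal tissue.

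Regulators upstream of cofilin showed no member 2-fold apart. Of 13 kept genes of this list, 0 were higher by 2-fold in either tissue, and the median difference was 0.03. Rock1, a kinase that activates LIM kinase, was at 7.61 in ventral and 6.82 in dorsal tissue. Limk1, the kinase that inactivates cofilin by phosphorylation, was at 4.00 in ventral and 4.32 in dorsal tissue. Pdxp, a phosphatase that reactivates it, lay under the background mark in both tissues, at 3.24 in ventral and 3.73 in dorsal tissue, as did the slingshot phosphatase gene Ssh2, at 2.82 in ventral and 3.28 in dorsal tissue.

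Genes of the Arp2/3 complex, which starts branched filaments, and of its activators had 4 ventral-high and 1 dorsal-high gene among 14 kept. With levels under the mark raised to it, 2 and 1 remained, Arpc5l and Brk1 no longer counting. Actr3, a core subunit, was higher by 2.81-fold, at 8.23 in ventral against 6.75 in dorsal tissue. Arpc2, another subunit, was 2.12-fold higher at 7.84 in ventral against 6.75 in dorsal tissue, and Arpc5l, an alternative form of a small subunit, at least 1.74-fold higher at 4.72 in ventral against 3.66 in dorsal tissue. Arpc2 was under 2-fold in 3 of 4 other scalings, and Arpc5l when centred on the common reference genes. Brk1, a small subunit of the WAVE complex, was higher by at least 1.74-fold, at 4.72 in ventral against a background level of 3.16 in dorsal tissue. Abi1, a further WAVE subunit, went the other way, 3.08-fold lower at 5.09 in ventral against 6.71 in dorsal tissue, so genes of this complex did not share a direction.

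The formins and Ena/VASP proteins, which elongate unbranched filaments from profilin-bound actin, had 2 ventral-high and 0 dorsal-high genes among 9 kept. Diaph3 was 2.34-fold higher at 5.48 in ventral against 4.25 in dorsal tissue, and Fmnl2 at least 2.17-fold higher at 5.03 in ventral against 3.52 in dorsal tissue. Daam2 and Diaph1 were at background on both arrays. Enah, an Ena/VASP protein that binds profilin, was at 7.74 in ventral and 7.83 in dorsal tissue.

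Among 9 kept genes of capping proteins, 1 was ventral-high and 0 dorsal-high. Capza2, an alpha subunit of capping protein, was higher by 4.48-fold, at 7.71 in ventral against 5.55 in dorsal tissue, while its partner beta subunit Capzb was within 2-fold at 7.31 in ventral and 6.65 in dorsal tissue. The other alpha subunit, Capza1, was at 6.70 in ventral and 6.66 in dorsal tissue. Tmod3, a tropomodulin that caps the slow end, was within 2-fold at 6.28 in ventral and 5.85 in dorsal tissue, and Eps8, which caps and bundles, at 4.01 in ventral and 4.40 in dorsal tissue. The paralogs Capza2 and Capza1 thus had differences of 2.16 and 0.04.

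Crosslinking and side-binding proteins had 4 ventral-high and 2 dorsal-high genes among 21 kept. Pls3, plastin 3, was higher by at least 2.50-fold, at 5.24 in ventral against a background level of 3.45 in dorsal tissue, and Actn1, alpha-actinin 1, was 3.33-fold higher at 6.10 in ventral against 4.36 in dorsal tissue. Coro1b, a coronin that works with cofilin at the leading edge, was higher by at least 2.48-fold, at 5.23 in ventral against 3.73 in dorsal tissue, and Tpm2, a muscle tropomyosin, 2.59-fold higher at 5.66 in ventral against 4.29 in dorsal tissue. The 2 dorsal-high genes, Fscn1 and Zyx, lay outside the naming rule and were chosen after their values were seen. Fscn1, the filopodial bundler fascin, was at 4.61 in ventral and 5.75 in dorsal tissue, and Zyx, the focal adhesion protein zyxin, at 4.53 in ventral and 5.66 in dorsal tissue.

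Nonmuscle myosin genes, whose products pull on actin filaments, were the list with the lowest median, -0.58 over 7 kept genes. That median was the value of Myl6, a gene at background, so it does not give the list a direction. Of the 7, 4 were higher in dorsal tissue, 2 of them dorsal-high, or 1 with levels under the mark raised to it. The 3 higher in ventral tissue had differences of at most 0.25, with levels above background on both arrays. Myl12b, a regulatory light chain, was 2.60-fold lower at 5.95 in ventral against 7.33 in dorsal tissue, and its paralog Myl12a was at 3.98 in ventral and 4.96 in dorsal tissue. Myh14 was the other gene counted, but both of its levels, 2.75 in ventral and 3.78 in dorsal tissue, were at background. Myl6, the essential light chain, was also at background on both arrays, at 3.22 in ventral and 3.80 in dorsal tissue. Probes for the near-identical Myl12a and Myl12b may share signal.

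Serum response factor, which drives actin genes through CArG boxes, was at background on both arrays, with Srf at 3.89 in ventral and 3.63 in dorsal tissue. Its actin-sensing cofactor Mrtfb was at 4.77 in ventral and 4.18 in dorsal tissue, Mrtfa was at background at 3.28 in ventral and 3.43 in dorsal tissue, and Scai, which represses them, was at 5.13 in ventral and 5.78 in dorsal tissue. None of the 4 kept genes of this list was 2-fold apart. Of the enzymes that modify actin, Setd3, the histidine methyltransferase, was higher by 2.16-fold, at 5.64 in ventral against 4.53 in dorsal tissue, although under 2-fold after quantile normalization and when centred on the reference genes, and Naa80, which acetylates its first residue, was at background at 3.18 in ventral and 3.05 in dorsal tissue.

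**Figure D4:**
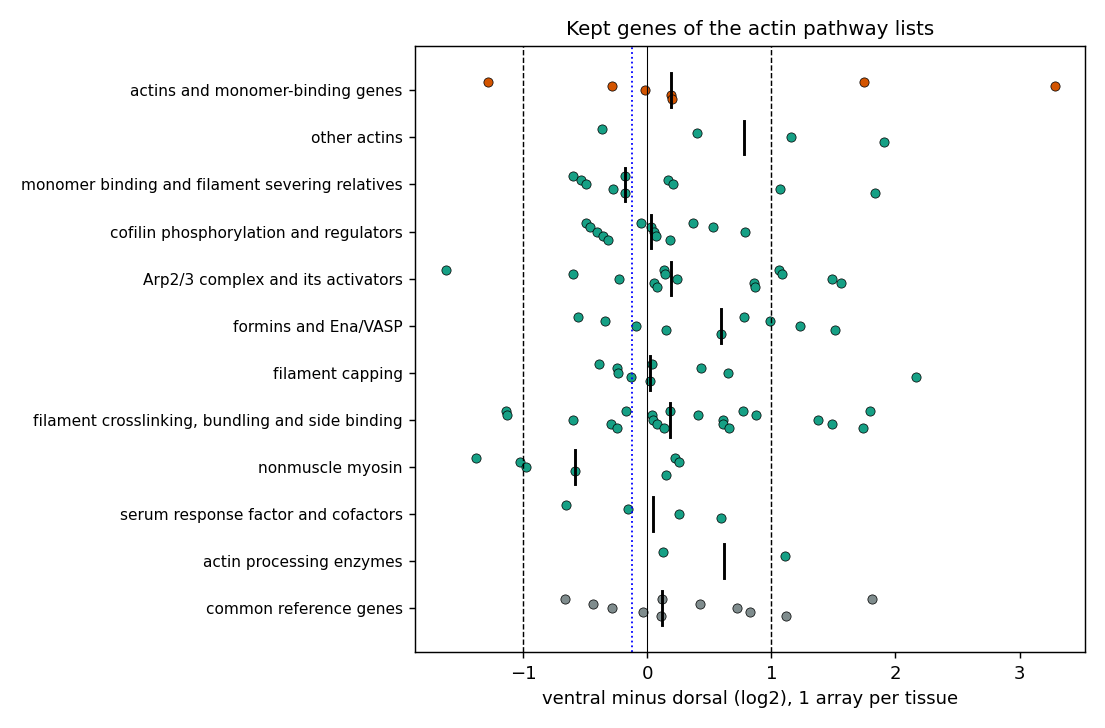
Difference, ventral minus dorsal (log2), of each kept gene (points) in the group described here, the 10 actin pathway lists and the common reference genes, with each list's median as a black bar, dashed lines at 2-fold and the median of all kept genes, -0.12, as a dotted line. Capza2 at 2.16 is the rightmost point of the pathway lists and Abi1 at -1.62 the leftmost.

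Markers of other cell types also differed between the 2 arrays, where 9.44% of all kept genes were ventral-high and 4.88% dorsal-high. Of 5 smooth muscle markers, 2 were ventral-high, Cnn1 and Acta2. On the log2 scale the 5 summed to 7.98 in ventral and 6.58 in dorsal tissue, or 7.43 in ventral and 5.91 in dorsal tissue without Acta2. Cnn1 had the widest gap and the highest ventral level, at 6.81 in ventral and a background level of 2.85 in dorsal tissue. The gap between these sums therefore rests largely on Cnn1. Tagln and Myl9 were within 2-fold, and Myh11, the smooth muscle myosin, was at background on both arrays. Of 5 endothelial markers, 3 were ventral-high, with summed levels of 7.65 in ventral and 6.00 in dorsal tissue and Tek at background. With levels under the mark raised to it, 2 remained ventral-high, Kdr no longer counting. Of 5 neuronal markers, 2 were ventral-high and 1 dorsal-high, with summed levels of 8.52 in ventral and 7.10 in dorsal tissue and Elavl3 at background. Nefm, a neurofilament subunit, set that sum at 8.19 in ventral and 5.45 in dorsal tissue, and the other 4 markers summed to 6.23 in ventral and 6.55 in dorsal tissue. Nefl, the other neuronal gene counted as ventral-high, was barely over the mark in ventral tissue, at 3.96 in ventral and 2.62 in dorsal tissue. The dorsal-high neuronal gene was Tubb3, above the mark on both arrays at 4.64 in ventral and 5.78 in dorsal tissue. The 4 skeletal muscle markers were all within 2-fold, with 2 higher in each tissue. Myog and Myf5 had differences of -0.97 and -0.95 and Des one of 0.99, each with its lower level at background. The 4 summed to 6.90 in ventral and 6.81 in dorsal tissue, or 5.54 in ventral and 5.83 in dorsal tissue without Actc1. The sums without the marker of the highest mean level were added after seeing the data. Their part in the differences of Cfl2, Pfn2 and the muscle actins was not tested. Of the blood markers, 4 of 4 platelet genes and 4 of 5 macrophage genes lay under the mark on both arrays. The remaining macrophage gene, Cx3cr1, was above it on both, at 5.62 in ventral and 6.07 in dorsal tissue. The 5 erythroid markers had summed levels of 13.4 in ventral and 13.5 in dorsal tissue, set by the globins. Of these 5, 0 were ventral-high and 1 dorsal-high, the erythroid factor gene Klf1, at 4.25 in ventral and 5.35 in dorsal tissue, and Gata1 was at background.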

How the data were processed

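Expression was measured in 1 ventral and 1 dorsal sample, assigned to tissue by title. Cryosections of 20 µm were microdissected and between 200 and 1000 pg of RNA was amplified, per the labels' protocols. The authors deposited log2 values, 1 per gene and array. Per the submitters' processing notes, Affymetrix Expression Console and RMA were used. Not given in the labels are versions, genome build, probe annotation and the set of arrays normalized jointly. RMA includes quantile normalization of probes, and it leaves low levels with compressed differences.

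Of 25429 features, 754 had no symbol in the platform annotation and were left out, which left 24675. The log2 difference, ventral minus dorsal, was computed for each gene, with no test at 1 array per tissue. The steps were run on simulated data with independent noise of an assumed size, which checks the code and not the error of the 2-fold calls. The genes, the 10 actin pathway lists, the reference genes and the markers were chosen with earlier results of these data known. The genes named were all measured genes of the group, up to 4 kept genes of each list with the greatest difference, and the nearest in pattern; 1 gene that this rule names is not reported here. Dstn, Cap1, Limk1, Arpc5l, Enah, Capza1, B2m, Hprt, Gusb, Eef1a1, Gapdh and the markers were added after their values were seen. A level below the background mark was replaced by the mark when a fold was printed. With 2 arrays, their number limits all precision. Alternatives were quantile normalization, centring on kept or on reference genes, a loess on level (span 0.3), other fold thresholds and other floors. The tools were statsmodels 0.14.6, pandas 2.3.3, numpy 2.4.6 and matplotlib 3.10.9 under Python 3.11.15.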

Additional observations from a re-analysis of the deposited data

How the results depend on the processing

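No paired analysis was possible because each tissue had 1 array, so no replicate could be left out either. Across 4 other scalings, the measured differences of Actb, Cfl2 and Pfn2 kept their direction and their side of 2-fold. At a 3-fold threshold 0 of the 7 measured genes were higher in dorsal tissue, since Actb no longer counted, and with values under the background mark raised to it, an alternative added after seeing the data, 1 was higher in ventral tissue, since Pfn2 no longer counted. Of the 93 kept pathway genes 29 were higher in ventral and 10 in dorsal tissue at 1.5-fold, and 5 and 1 at 3-fold. The counts of ventral-high and dorsal-high genes among all 13982 kept genes, 1320 and 682, became 2286 and 2099 at 1.5-fold and 626 and 228 at 3-fold. They were 656 and 316 among the smaller set of genes above the background mark on both arrays. Centring on the common reference genes, whose median difference was 0.12, gave 1114 and 909, a more even split, and centring on the kept genes gave 1527 and 527, a less even one. Low signal limits Cfl1, at background on both arrays, and the dorsal levels of Cfl2 and Pfn2.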
